A study of Mus musculus with 24 samples.

Results

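The comparison asks whether the loss of Vhl changes mature B cells in the same way as immature B cells. For every gene the Vhl effect, the log2 ratio of flox/flox over flox/WT cells, was taken in mature and in immature B cells from mouse bone marrow, and the immature effect was subtracted from the mature one. It rests on 16 of the study's 24 RNA-seq libraries, 4 in each of 4 groups, and on the 12850 of 24421 listed genes that passed a filter on low counts. The mature flox/flox and immature flox/flox libraries came from 4 mice with the genotype MB1 Cre +/WT, VHL flox/flox. The mature flox/WT and immature flox/WT libraries came from 4 mice with MB1 Cre +/WT, VHL flox/WT, so the controls carried the recombinase and 1 floxed allele as well. Mb1-Cre is expressed from the Cd79a locus, which is active in B lineage cells from an early stage of their development. Each mouse gave 1 library of each population, and the populations are therefore paired by animal. Names of the sorted populations are given in the labels, while the surface markers of the gates and the age of the mice are not, and 1 mouse of each genotype had counts of the Y-linked gene Ddx3y. The remaining 8 libraries, from a sort labelled proBpreB, share the estimate of the spread and are shown where they help to place a level. Libraries held 7850186 to 11863949 counts, so that 3 counts in 1 library correspond to 0.253 to 0.382 CPM, counts scaled to the library size by TMM.

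VHL is the substrate receptor of a ubiquitin ligase that binds the hypoxia-inducible factors HIF-1α and HIF-2α once their prolines have been hydroxylated, and it sends them to the proteasome. Without VHL the factors persist at normal oxygen and switch on genes for glycolysis, glucose uptake, mitophagy and oxygen sensing. B cells divide in bursts at the pro-B and large pre-B stages, leave the cycle before they carry surface IgM as immature cells, and return to the marrow as resting, recirculating mature cells. Genes of S phase are switched on by E2F factors. Genes of mitosis are held down by the DREAM complex in resting cells and switched on by B-Myb and FoxM1. These factors act through the cell cycle genes homology region (CHR) of mitotic promoters, which often hold CCAAT boxes as well.

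Vhl itself (chr6:113623994-113631634 in the mm10/GRCm38 build) was low in all flox/flox libraries. It was at 8.37, 9.79, 5.39 and 6.84 CPM in mature flox/flox mice 1 to 4, against 30.5, 26.3, 27.4 and 32.4 CPM in mature flox/WT mice. Immature cells held it at 6.79, 3.07, 4.29 and 8.16 CPM in flox/flox mice, against 47.9, 34.2, 26.8 and 33.1 CPM in flox/WT mice. The genotypes did not overlap in either population, and a two-sided exact permutation test gave p = 0.0286 in each, the smallest that 4 against 4 mice allow. The Vhl effect on its own transcript was -1.94 in mature and -2.66 in immature cells on the log2 scale. The difference of 0.72 ± 0.34 (adjusted p = 0.225) did not pass, with a 95% interval of 0.03 to 1.42, and per mouse it was 0.75 with an exact permutation p of 0.0857. It was 0.38 without flox/flox mouse 2, and 0.99 without flox/flox mouse 4. With mouse 4 left out the exact permutation test had fewer assignments and gave p = 0.0286. Reads over parts of Vhl outside the floxed segment cannot be told from reads over it in counts per gene, so the remaining level does not measure the share of cells that kept Vhl.

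The labels matched the markers of the populations. Summed over 22 genes of mature B cells, libraries held 37658 to 44243 CPM in mature flox/flox and 48964 to 64434 CPM in mature flox/WT cells, and 24402 to 28855 CPM in immature flox/flox and 28361 to 32825 CPM in immature flox/WT cells. Summed over 25 pro-B and pre-B genes the order was the reverse, at 1885 to 1983, 1638 to 2069, 3292 to 3974 and 2521 to 2882 CPM in the same 4 groups. In a principal component analysis of the 1000 most variable genes over the 16 libraries, the first component (38.4% of the variance) placed mature flox/flox libraries at -4.58 to -2.57 and mature flox/WT libraries at -42.3 to -38.3, and immature flox/flox libraries at 35.9 to 38.6 and immature flox/WT libraries at 3.92 to 8.33. No group overlapped another on that axis. In these bulk libraries, fewer cells of a kind and less RNA per cell cannot be told apart.

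The Vhl effect differed between mature and immature cells for 995 genes (7.74% of the 12850 tested, edgeR quasi-likelihood test, Benjamini-Hochberg adjusted p under 0.05). The effect was higher in mature cells for 708 of them (5.51%) and lower for 287 (2.23%), and the median difference over all genes was -0.00169. At an unadjusted p under 0.05 the counts were 1488 (11.6%) and 1084 (8.44%). The 287 became 165 without flox/flox mouse 1, 166 without flox/flox mouse 3, 162 without flox/WT mouse 2, 146 without flox/WT mouse 3 and 189 without flox/WT mouse 4, while the 708 stayed between 515 and 774 with any 1 mouse left out. Of the 708 genes, 504 differed by more than 1 and 222 by more than 2 on the log2 scale, while of the 287 genes 76 and 14 did so. In the per-mouse values, the mature minus immature log2 CPM of each animal, the genotypes did not overlap for 849 of the 995 genes (6.61% of all genes tested), and 1682 of all genes (13.1%) had no such overlap. In 16 of the 708 and 4 of the 287 genes a group held 3 or fewer counts in all, and no fold change is read from these.

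Most of the 708 genes had a lower level in immature flox/flox than in immature flox/WT cells. Within immature cells 508 of the 708 genes fell (71.8%, against 10.5% of all genes) and 39 rose (5.51%, against 10.2%). Within mature cells 306 of them rose (43.2%, against 9.69% of all genes) and 9 fell (1.27%, against 6.62%). The 287 lower genes were the mirror image, with 147 rising in immature cells (51.2%, against 10.2%) and 120 falling in mature cells (41.8%, against 6.62%). These counts use libraries of the difference itself and describe its 2 terms.

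Sorted by the population in which the effect passed, 365 of the 708 genes passed in immature cells alone, 133 in mature cells alone and 28 in neither. A further 39 moved the same way in both populations with the larger effect in mature cells, and 9 moved the same way with the larger effect in immature cells. In 134 genes the genotype effect was opposite, a rise in mature and a fall in immature cells that each passed. Only 9 genes showed the converse, a fall in mature and a rise in immature cells. Of the 585 genes that rose in both populations, which are 47.0% of the 1245 rises in mature and 44.7% of the 1310 rises in immature cells, 62 (10.6%) also passed the difference. Of the 239 genes that fell in both, 12 (5.02%) did so.

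**Figure D1:**
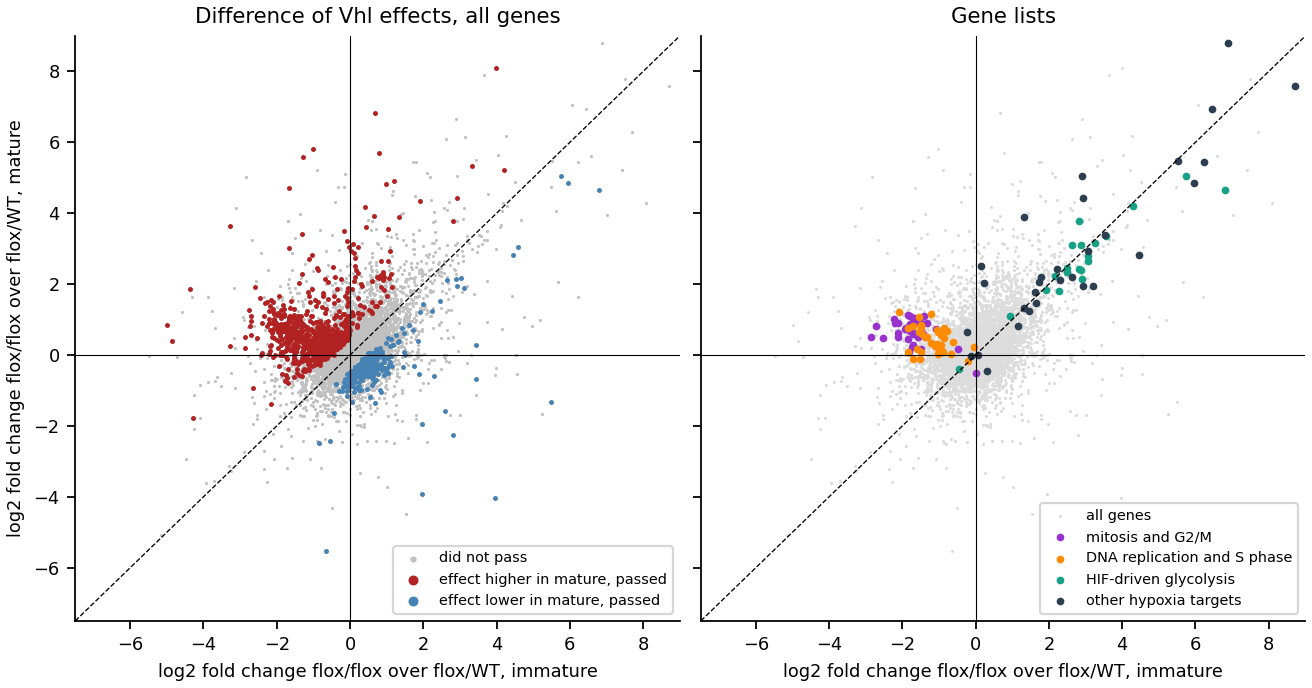
Each point is a gene and shows its log2 fold change of flox/flox over flox/WT in immature cells (horizontal) and in mature cells (vertical), and the dashed line marks equal effects. On the left the 708 genes with the higher effect in mature cells lie above the dashed line, many of them up and to the left, and the 287 with the lower effect below it. On the right, most mitosis and S phase genes lie up and to the left, positive in mature and negative in immature cells, while most glycolysis and other hypoxia genes lie up and to the right, positive in both. The axes leave out 10 genes with larger fold changes, 4 of them in the lists drawn.

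The same difference can be read along the stages, as the step from immature to mature cells in each genotype. In flox/WT mice 528 of the 708 genes fell in that step (17.1% of all genes did), 47 rose (15.6% of all genes did) and 133 did not pass. In flox/flox mice 62 of the 708 fell (13.6% of all genes did), 221 rose (12.9% of all genes did) and 425 did not pass. The median step of the 708 genes was 0.26 in flox/flox and -1.13 in flox/WT mice. For 417 genes the fall in flox/WT mice had no called counterpart in flox/flox mice, and 49 genes fell in flox/WT and rose in flox/flox mice. The 287 lower genes had a median step of -0.44 in flox/flox and 0.35 in flox/WT mice. Of them 156 fell in flox/flox mice (13.6% of all genes did) and 143 rose in flox/WT mice (15.6% of all genes did).

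Genes of cell division made up the group with the most uniform difference. Of 40 genes of mitosis and G2, 39 had a higher Vhl effect in mature cells and 0 a lower one, with a median difference of 2.56. Of 36 genes of DNA replication and S phase, 33 were higher and 0 lower, with a median of 1.56. Over all genes 5.51% were higher and 2.23% lower. The 2 effects had opposite signs, since the median Vhl effect of mitosis genes was 0.72 in mature and -1.77 in immature cells, and that of S phase genes 0.35 in mature and -1.08 in immature cells. In mature cells 23 of 40 mitosis genes and 15 of 36 S phase genes rose and 1 mitosis gene fell (9.69% of all genes rose and 6.62% fell). In immature cells 39 and 34 fell and 0 rose (10.5% of all genes fell and 10.2% rose). With each mouse left out in turn, 37 to 39 mitosis genes and 32 to 33 S phase genes kept a call for the difference. In proBpreB cells, where 3.38% of all genes rose and 2.75% fell, 0 genes of either list passed the Vhl effect in edgeR.

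The summed level of the mitosis genes shows where the groups lie. It was 1352, 1356, 1153 and 983 CPM in mature flox/flox mice 1 to 4, against 975, 966, 582 and 644 CPM in mature flox/WT mice. Immature cells had 1026, 938, 1186 and 1275 CPM in flox/flox mice, against 2998, 3230, 4372 and 4309 CPM in flox/WT mice. Mature flox/flox, immature flox/flox and mature flox/WT libraries thus lay in 1 low range, in which every mature flox/flox library exceeded every mature flox/WT one, and immature flox/WT libraries stood well above it. The proBpreB libraries held 7367 to 8920 CPM in flox/flox and 6780 to 9067 CPM in flox/WT mice, and these ranges overlapped. S phase genes summed to 2051 to 2668 CPM in mature flox/flox and 1552 to 2352 CPM in mature flox/WT cells, and to 1850 to 2308 CPM in immature flox/flox and 4243 to 4594 CPM in immature flox/WT cells, so here the mature genotypes overlapped and the immature ones did not.

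**Figure D2:**
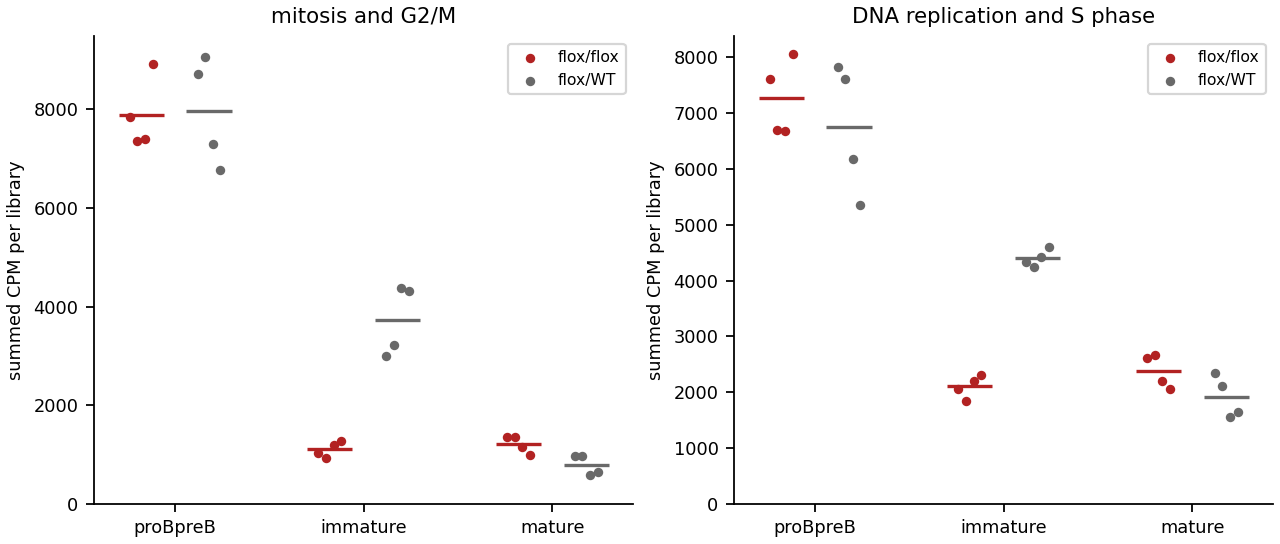
Summed CPM of mitosis and G2/M genes (left) and of DNA replication and S phase genes (right) in each of 24 libraries by population; points are mice, flox/flox in red left of flox/WT in grey, and bars are means of 4. Immature flox/WT libraries hold 2998 to 4372 CPM of mitosis genes and immature flox/flox libraries 938 to 1275 CPM, close to both mature groups, while the proBpreB genotypes overlap.

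The promoters of 3 of these genes are shown because they carry the elements through which mitotic genes are known to be controlled. Capitals mark the CHR (TTTGAA, or TTCAAA on the other strand) and the CCAAT box (CCAAT, or ATTGG on the other strand) in windows from 250 bases before to 50 bases after a RefSeq start site in GRCm38.p6, written 5′ to 3′ along the gene's strand. Kif11 encodes the motor that pushes spindle poles apart, and its window is chr19:37376132-37376431 (+ strand). Ccnb2 encodes cyclin B2, a partner of the mitotic kinase Cdk1, with the window chr9:70421505-70421804 (- strand). Mki67 encodes the proliferation antigen Ki-67 that coats mitotic chromosomes, with the window chr7:135716330-135716629 (- strand).
Kif11: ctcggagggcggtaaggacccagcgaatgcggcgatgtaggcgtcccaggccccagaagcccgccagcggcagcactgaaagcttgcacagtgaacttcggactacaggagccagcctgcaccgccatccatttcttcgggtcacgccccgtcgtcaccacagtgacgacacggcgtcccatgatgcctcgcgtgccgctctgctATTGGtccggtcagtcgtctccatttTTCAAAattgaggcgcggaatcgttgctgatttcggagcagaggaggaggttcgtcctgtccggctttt
Ccnb2: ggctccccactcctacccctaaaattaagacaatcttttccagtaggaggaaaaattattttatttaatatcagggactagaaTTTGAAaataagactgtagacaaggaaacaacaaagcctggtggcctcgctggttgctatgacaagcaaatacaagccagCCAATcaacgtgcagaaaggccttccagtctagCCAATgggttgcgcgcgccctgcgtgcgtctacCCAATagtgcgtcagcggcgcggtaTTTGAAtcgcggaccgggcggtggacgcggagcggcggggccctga
Mki67: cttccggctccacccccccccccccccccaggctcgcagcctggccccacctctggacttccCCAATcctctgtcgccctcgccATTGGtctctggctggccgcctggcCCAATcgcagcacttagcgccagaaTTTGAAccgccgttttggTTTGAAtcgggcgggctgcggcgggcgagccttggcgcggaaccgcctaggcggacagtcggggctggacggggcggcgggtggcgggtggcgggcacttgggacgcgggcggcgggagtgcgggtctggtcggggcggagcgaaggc

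Both letter strings occurred together in 23 of 35 windows of mitosis genes (65.7%), against 611 of 12298 windows of all genes tested (4.97%). Among windows of the genes with a higher Vhl effect in mature cells the share was 14.5%, and among those with a lower effect 3.17%. The higher set contains 39 of the 40 mitosis genes, so its share is not separate from theirs. The E2F strings TTGGCGC or TTCGCGC or TTCCCGC or TTGCCGC, searched on both strands, occurred in 63.2% of windows of S phase genes and 16.1% of all windows. A match is a description of the letters in the window and not evidence of binding, and genes with several start sites contributed several windows.

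Kif11 (chr19:37376382-37421863) stood at 42.9, 37.3, 33.5 and 33.9 CPM in mature flox/flox mice, against 17.1, 27.8, 15.2 and 13.8 CPM in mature flox/WT mice. Its level in immature cells was 36.8, 20.9, 38.9 and 39.8 CPM in flox/flox mice, against 118, 150.0, 189 and 177 CPM in flox/WT mice. Mature flox/flox libraries were all above mature flox/WT ones, and immature flox/flox libraries were all below immature flox/WT ones. The Vhl effect was 1.00 in mature (adjusted p = 0.00147) and -2.22 in immature cells (adjusted p = 6.71e-09), and the difference was 3.22 ± 0.30 (adjusted p = 2.98e-08). Ccnb2 (chr9:70407689-70421554) had the same form, with 37.9, 42.4, 33.3 and 29.2 CPM in mature flox/flox and 24.1, 21.8, 14.8 and 14.1 CPM in mature flox/WT mice. Its immature values were 33.0, 24.1, 36.0 and 32.1 CPM in flox/flox and 106, 78.5, 105 and 118 CPM in flox/WT mice. Neither population had an overlap between genotypes, and the difference was 2.64 ± 0.22 (adjusted p = 2.37e-09).

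Mki67 (chr7:135689784-135716450) differed in immature cells without a clear mature effect. It was at 40.0, 27.7, 43.4 and 24.6 CPM in mature flox/flox mice, against 30.6, 42.0, 8.83 and 14.9 CPM in mature flox/WT mice. Immature cells had 22.9, 15.5, 45.2 and 34.9 CPM in flox/flox mice, against 64.9, 174, 352 and 272 CPM in flox/WT mice. The mature genotypes overlapped and flox/WT mice were spread from 8.83 to 42.0 CPM, so the mature effect of 0.50 did not pass (adjusted p = 0.538), whereas the difference of 3.36 ± 0.69 (adjusted p = 0.00379) did. Among genes that are opposite in the populations, Birc5, which encodes survivin of the chromosomal passenger complex, had a difference of 2.48 ± 0.22 (adjusted p = 6.96e-09). Spc25 and Nuf2, subunits of the Ndc80 complex that ties kinetochores to microtubules, had differences of 2.37 ± 0.20 and 2.61 ± 0.25. Pttg1, which encodes securin, was the 1 mitosis gene without a call, at -0.51 ± 0.19 (adjusted p = 0.108), and it is the mitosis gene that fell in mature cells.

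S phase genes varied more. Rrm2, the small subunit of ribonucleotide reductase, was at 134, 148, 111 and 84.6 CPM in mature flox/flox mice, against 82.6, 63.1, 36.1 and 45.0 CPM in mature flox/WT mice. Its immature levels were 99.8, 81.1, 112 and 136 CPM in flox/flox mice, against 328, 279.6, 329 and 314 CPM in flox/WT mice. The genotypes were apart in both populations in opposite directions, and the difference was 2.62 ± 0.27 (adjusted p = 1.92e-07). Mcm10, which loads replication factors onto the helicase, had the largest difference of the list, 3.32 ± 0.41 (adjusted p = 2.82e-06). Tyms, which makes thymidylate, had 2.04 ± 0.22 (adjusted p = 2.01e-07), and Pole, the catalytic subunit of DNA polymerase epsilon, had 2.62 ± 0.30 (adjusted p = 5.11e-07). Dbf4, the activator of the Cdc7 kinase, differed by 1.79 ± 0.23 through immature cells alone, with a mature effect of 0.18 (adjusted p = 0.502). Cdt1, Rfc3 and Fen1 were the members without a call, with differences of 0.04, 0.27 and 0.69.

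Regulators of the entry into the cycle were less uniform. Of 15 D cyclins, G1 kinases, pocket proteins and inhibitors 3 were higher and 0 lower (5.51% and 2.23% of all genes), with a median of 0.38. Ccnd2, the D cyclin of pre-B and activated B cells, stood at 104, 99.9, 119.7 and 103 CPM in mature flox/flox mice, against 23.6, 51.8, 32.8 and 36.5 CPM in mature flox/WT mice. In immature cells it was at 271, 223, 262 and 241 CPM in flox/flox mice, against 538, 511, 505 and 395 CPM in flox/WT mice. Both pairs of groups were apart in opposite directions, and the difference was 2.53 ± 0.26 (adjusted p = 1.02e-07). The pocket protein gene Rbl1 (p107, itself an E2F target) differed by 1.26 ± 0.19 and the kinase inhibitor gene Cdkn2c (p18) by 1.29 ± 0.26, in both cases with a fall in immature cells and no call in mature cells. The transcription factor gene Myc was at 72.5, 101, 73.3 and 86.4 CPM in mature flox/flox and 45.5, 69.1, 50.1 and 52.9 CPM in mature flox/WT mice, and at 49.6, 52.3, 65.2 and 67.8 CPM in immature flox/flox and 86.6, 85.7, 97.6 and 97.2 CPM in immature flox/WT mice. Its groups did not overlap in either population, and its difference was 1.26 ± 0.31 (adjusted p = 0.0107), which became 1.10 (adjusted p = 0.054) without flox/flox mouse 2 and 1.19 (adjusted p = 0.0521) without flox/WT mouse 3.

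Levels of other marrow cells also moved with the genotype, and their part in the cell cycle result was not tested. Summed over 17 erythroid markers, libraries held 9182 to 24342 CPM in mature flox/flox and 4679 to 12570 CPM in mature flox/WT cells, and 11727 to 22093 CPM in immature flox/flox and 2900 to 9169 CPM in immature flox/WT cells. Summed over 22 neutrophil and monocyte markers the ranges were 14040 to 22768, 12764 to 19875, 13205 to 17944 and 9089 to 10696 CPM in the same order. Both sums were higher in immature flox/flox than in immature flox/WT libraries with no overlap. None of the erythroid, T cell, basophil, neutrophil, natural killer and stromal markers passed the difference in the main edgeR fit. At an unadjusted p under 0.05 the 17 erythroid and 15 T cell markers gave 0, the 22 neutrophil markers 2, the 13 natural killer markers 2, the 13 basophil markers 1 and the 9 stromal markers 1. An edgeR fit of only the 16 mature and immature libraries called 1 neutrophil marker lower. With a filter of 10 CPM in 4 libraries 1 basophil marker was called lower. DESeq2 called 1 neutrophil and 1 basophil marker lower and 0 in the other 4 lists. With 1 mouse left out edgeR called 1 basophil marker (without flox/flox mouse 1), 1 natural killer marker (without flox/WT mouse 2) and 1 neutrophil marker (without flox/WT mouse 1 or 4). The pro-B and pre-B genes summed higher in immature flox/flox than in immature flox/WT libraries without overlap, as given above. Vpreb3, given below, held a large part of that gap. Of the 25 genes 8 rose and 3 fell in immature cells (10.2% and 10.5% of all genes). The part of precursor cells in the cell cycle result was not tested.

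Most genes of the hypoxia programme rose in both populations, and some differed in the size of the rise. All but 1 of 20 HIF-driven genes of glycolysis rose in mature cells and the same number in immature cells (9.69% and 10.2% of all genes). Their median Vhl effects were 2.55 and 2.85. The difference was higher for 1 gene and lower for 3 of the 20 (5.51% and 2.23% of all genes), with a median of -0.12, and at an unadjusted p under 0.05 it was higher for 2 and lower for 7 (11.6% and 8.44% of all genes). For 16 of 20 the 95% interval of the difference lay within 1 log2 unit on either side of 0. Of 34 other hypoxia targets, 30 rose in mature and 28 in immature cells (9.69% and 10.2% of all genes). For the difference 4 were higher and 3 lower (5.51% and 2.23% of all genes), and the interval of 15 lay within 1 unit. Without the 6 members that held 3 or fewer counts in a flox/WT group, the median difference of this list was -0.10. Pooled, 47 of 54 tested members of the 2 lists rose in both populations, against 585 of all 12850 genes tested. Over the 54 members the difference was higher for 5 and lower for 6, against 5.51% and 2.23% of all genes, and 31 of the 54 intervals lay within 1 unit.

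Slc2a1, the glucose transporter Glut1, is an example without a call. It was at 487, 475, 491 and 487 CPM in mature flox/flox mice, against 104, 106, 82.7 and 87.6 CPM in mature flox/WT mice. Immature cells held it at 296, 387, 342 and 352 CPM in flox/flox mice, against 76.7, 59.7, 55.7 and 52.7 CPM in flox/WT mice. The genotypes were far apart in both, with a Vhl effect of 2.35 in mature and 2.49 in immature cells, and the interval of the difference ran from -0.50 to 0.22. Likewise the interval was -0.54 to 0.13 for phosphoglycerate kinase gene Pgk1, whose effect was 3.36 in mature and 3.56 in immature cells. It was -0.57 to 0.03 for Ldha, which makes lactate, and -0.04 to 1.06 for Egln3, a HIF prolyl hydroxylase and the gene with an effect of 6.95 in mature and 6.44 in immature cells. These 4 genes were chosen after their values were seen.

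Other hypoxia genes differed between the populations, in both directions. Bhlhe40 (chr6:108660629-108666925), a transcriptional repressor of the clock that responds to hypoxia, had 116, 108, 125 and 123 CPM in mature flox/flox mice, against 19.9, 22.8, 22.5 and 18.3 CPM in mature flox/WT mice. Its level in immature cells was 129.6, 101, 109 and 105 CPM in flox/flox mice, against 131, 92.7, 88.3 and 91.7 CPM in flox/WT mice. Only mature flox/WT libraries stood apart, below all the others, and the immature genotypes overlapped. The Vhl effect was 2.50 in mature (adjusted p = 4.07e-14) and 0.14 in immature cells (adjusted p = 0.493), a difference of 2.36 ± 0.19 (adjusted p = 2.37e-09). Along the stages the level fell by 2.28 in flox/WT mice, while in flox/flox mice the step was 0.08 (adjusted p = 0.705).

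Its paralogue Bhlhe41, named after its values were seen, was at 55.1, 60.7, 99.3 and 62.1 CPM in mature flox/flox mice, against 2.65, 9.31, 7.22 and 4.76 CPM in mature flox/WT mice. Immature levels were 66.6, 81.5, 76.0 and 82.4 CPM in flox/flox mice, against 49.0, 26.7, 39.2 and 35.6 CPM in flox/WT mice. The flox/flox libraries of the 2 populations covered one range and mature flox/WT libraries lay lowest, with a difference of 2.52 ± 0.35 (adjusted p = 1.49e-05). Adm, the vasodilator peptide adrenomedullin, was at 49.9, 49.8, 34.5 and 30.3 CPM in mature flox/flox mice, against 4.58, 2.64, 2.24 and 1.62 CPM in mature flox/WT mice. Its immature levels were 54.0, 44.5, 34.5 and 41.8 CPM in flox/flox mice, against 15.8, 18.3, 17.8 and 17.5 CPM in flox/WT mice. Again the flox/flox levels overlapped between populations while the flox/WT levels did not, and the difference was 2.57 ± 0.33 (adjusted p = 2.72e-06).

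Ndrg1, a stress-responsive gene of the NDRG family, rose in both populations, further in mature cells. It was at 191, 208, 216 and 239 CPM in mature flox/flox mice, against 12.4, 7.04, 8.96 and 10.7 CPM in mature flox/WT mice, and at 154, 117, 128 and 121 CPM in immature flox/flox mice, against 14.0, 22.1, 11.9 and 20.2 CPM in immature flox/WT mice. Mature flox/flox libraries were the highest of all, and the difference was 1.51 ± 0.23 (adjusted p = 2.94e-05). Mgarp, a mitochondrial protein gene and the fourth target called higher, held 4729 counts in mature flox/flox and 0 in mature flox/WT libraries, and 4690 counts in immature flox/flox and 9 in immature flox/WT libraries, so its difference rests on 9 counts and no fold is given. In glycolysis Hk2, which phosphorylates glucose at the mitochondrial surface, was the 1 gene called higher, with an effect of 3.78 in mature and 2.81 in immature cells and a difference of 0.97 ± 0.27 (adjusted p = 0.0235). Hk2 lost its call without flox/flox mouse 1, 3 or 4 or flox/WT mouse 4, where the difference was 1.00, 0.94, 0.93 and 0.80 (adjusted p = 0.0603 to 0.124).

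**Figure D3:**
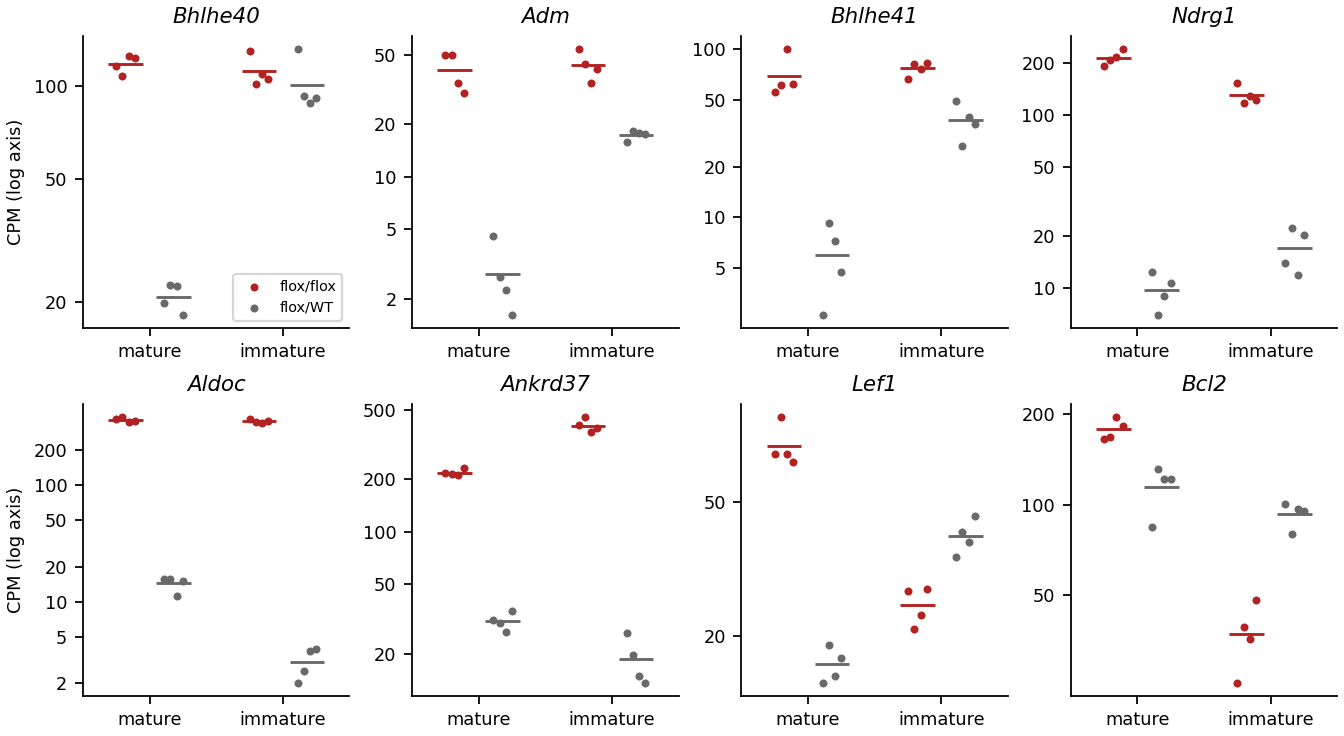
CPM per library (log axis) of 8 genes in mature and immature cells, with flox/flox mice in red left of flox/WT mice in grey and bars at the mean of 4. In Bhlhe40, Adm, Bhlhe41 and Aldoc the flox/flox levels of both populations overlap and the flox/WT levels differ, while Lef1 and Bcl2 are opposite between the genotypes in the 2 populations.

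On the lower side Aldoc and Ankrd37 led the hypoxia genes. Their windows are shown because HIF binds the core ACGTG or GCGTG, marked in capitals on either strand. Aldoc encodes aldolase C, a glycolytic enzyme of brain that is induced by hypoxia, with the window chr11:78322823-78323122 (+ strand). Ankrd37 encodes an ankyrin repeat protein and is a known HIF target, with the window chr8:45999801-46000100 (- strand).
Aldoc: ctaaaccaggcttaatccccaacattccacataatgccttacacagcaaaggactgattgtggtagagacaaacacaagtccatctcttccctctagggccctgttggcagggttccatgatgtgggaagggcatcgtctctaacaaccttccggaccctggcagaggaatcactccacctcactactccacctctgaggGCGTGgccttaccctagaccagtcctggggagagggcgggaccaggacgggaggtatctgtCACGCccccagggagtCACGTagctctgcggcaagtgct
Ankrd37: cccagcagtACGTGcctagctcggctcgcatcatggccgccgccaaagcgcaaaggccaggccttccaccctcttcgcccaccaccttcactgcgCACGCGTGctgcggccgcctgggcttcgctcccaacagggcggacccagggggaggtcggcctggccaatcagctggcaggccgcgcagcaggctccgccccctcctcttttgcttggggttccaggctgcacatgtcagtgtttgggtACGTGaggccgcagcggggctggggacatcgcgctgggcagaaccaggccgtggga

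The core is common and occurred in 60.8% of all windows, in 79.3% of windows of glycolysis genes and in 75.0% of those of the other hypoxia targets. Aldoc (chr11:78323073-78327781) was at 366, 382, 347 and 358 CPM in mature flox/flox mice, against 15.6, 15.7, 11.2 and 14.9 CPM in mature flox/WT mice. In immature cells it was at 371, 347, 339 and 357 CPM in flox/flox mice, against 2.02, 2.54, 3.79 and 3.89 CPM in flox/WT mice. All flox/flox libraries held one level, and flox/WT libraries were higher in mature than in immature cells. The Vhl effect was thus 4.66 in mature and 6.81 in immature cells, a difference of -2.15 ± 0.21 (adjusted p = 3.6e-08).

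Ankrd37 (chr8:45996908-46000414) was at 216, 214, 213 and 232 CPM in mature flox/flox mice, against 31.2, 30.2, 26.6 and 35.3 CPM in mature flox/WT mice. Immature cells held 408, 454, 372 and 394 CPM in flox/flox mice, against 26.3, 19.8, 15.0 and 13.7 CPM in flox/WT mice. Here immature flox/flox libraries were the highest group, and the difference was -1.63 ± 0.22 (adjusted p = 7.36e-06). The mitophagy receptor genes Bnip3 and Bnip3l were lower too, with a difference of -1.09 ± 0.17 (adjusted p = 4.8e-05) for Bnip3. Bnip3l had a Vhl effect of 1.93 in mature and 2.93 in immature cells (adjusted p of the difference = 6.36e-06). Bnip3 was at 1211, 1309, 1488 and 1169 CPM in mature flox/flox mice, against 46.9, 48.4, 44.8 and 37.7 CPM in mature flox/WT mice. Its immature levels were 1235, 1349, 1086 and 1303 CPM in flox/flox mice, against 24.1, 21.3, 18.7 and 16.3 CPM in flox/WT mice, so flox/flox levels overlapped between populations. Eno1, the glycolytic enolase, differed by -0.76 ± 0.19 (adjusted p = 0.00814), and its count may share reads with the near-identical retrogene Eno1b. The lactate exporter gene Slc16a3 differed by -0.70 ± 0.21 (adjusted p = 0.0324), a call that was lost without flox/flox mouse 1, 2 or 4 or flox/WT mouse 1 or 4, where the adjusted p was 0.0764 to 0.146.

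Among 14 components of the pathway itself, 0 were higher and 1 was lower (5.51% and 2.23% of all genes). Hif1a, the HIF-1α gene, had a difference of 0.09 and Arnt, its partner, of 0.04, with neither called in either population. Cited2, which competes with HIF for its coactivators, rose in both populations and differed by -0.85 ± 0.26 (adjusted p = 0.0466). That call was lost without flox/flox mouse 1, 3 or 4 or flox/WT mouse 2, 3 or 4, with adjusted p-values from 0.0644 to 0.203.

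Among the 2 lists of mitochondrial respiration, none of 22 genes of the tricarboxylic acid cycle and none of 33 nuclear genes of oxidative phosphorylation passed the difference in edgeR or DESeq2, and at an unadjusted p under 0.05 there were 1 and 0. The 95% interval lay within 1 log2 unit of 0 for all 22 and all 33 of these genes. Of 17 genes of amino acid supply and stress that Atf4 controls 5 were higher and 0 lower (5.51% and 2.23% of all genes). The median of the 17 was 0.47, or 0.57 without the 1 member of 3 or fewer counts in a group, and the median of the 17 was 0.21 without flox/flox mouse 1 and 0.14 without flox/WT mouse 4. Phgdh, the first enzyme of serine synthesis, was at 111, 111, 90.7 and 105 CPM in mature flox/flox mice, against 117, 108, 128 and 109.8 CPM in mature flox/WT mice. Immature cells held it at 141, 135, 123 and 138 CPM in flox/flox mice, against 368, 296, 277 and 320.2 CPM in flox/WT mice. The mature genotypes overlapped and immature flox/WT libraries stood above all others, and the difference was 1.09 ± 0.16 (adjusted p = 2.81e-05). Psat1, the next enzyme of that path, differed by 1.21 ± 0.19 (adjusted p = 7e-05). The other 3 were Slc7a11, Shmt2 and Mthfd2, and the 5 became 3 without flox/flox mouse 2 or flox/WT mouse 4 and 2 without flox/WT mouse 3.

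Of 22 genes of cholesterol synthesis 7 fell and 0 rose in immature cells (10.5% and 10.2% of all genes), and 2 fell and 0 rose in mature cells (6.62% and 9.69%). For the difference 5 were higher and 0 lower (5.51% and 2.23% of all genes), with a median of 0.13. Idi1, which isomerises isopentenyl diphosphate, was at 25.8, 20.1, 24.1 and 29.5 CPM in mature flox/flox mice, against 28.1, 25.7, 23.8 and 32.2 CPM in mature flox/WT mice. Immature levels were 13.1, 14.8, 15.3 and 17.7 CPM in flox/flox mice, against 39.3, 39.0, 37.5 and 31.6 CPM in flox/WT mice. Immature flox/flox libraries were the lowest group, and the difference was 1.13 ± 0.23 (adjusted p = 0.00119). Sqle, squalene epoxidase, differed by 1.33 ± 0.29 (adjusted p = 0.00348), and Cyp51, the sterol demethylase, was also called. Without flox/flox mouse 1 or 3, or flox/WT mouse 2 or 3, 2 genes of the list were called, and without flox/flox mouse 4 or flox/WT mouse 4, 3 were. Of 20 genes of the unfolded protein response 0 were higher and 4 lower (5.51% and 2.23% of all genes). Xbp1, the transcription factor of secretory capacity, differed by -0.71 ± 0.17 (adjusted p = 0.00861) through a rise in immature cells, and the chaperone gene Calr by -0.65 ± 0.15 (adjusted p = 0.00586) through a fall in mature cells, and the others were Manf and Hyou1, with 3 of the 4 called without flox/flox mouse 1, 2 or 3 or flox/WT mouse 3. At an unadjusted p under 0.05, 7 were lower and 0 higher (8.44% and 11.6% of all genes).

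**Figure D4:**
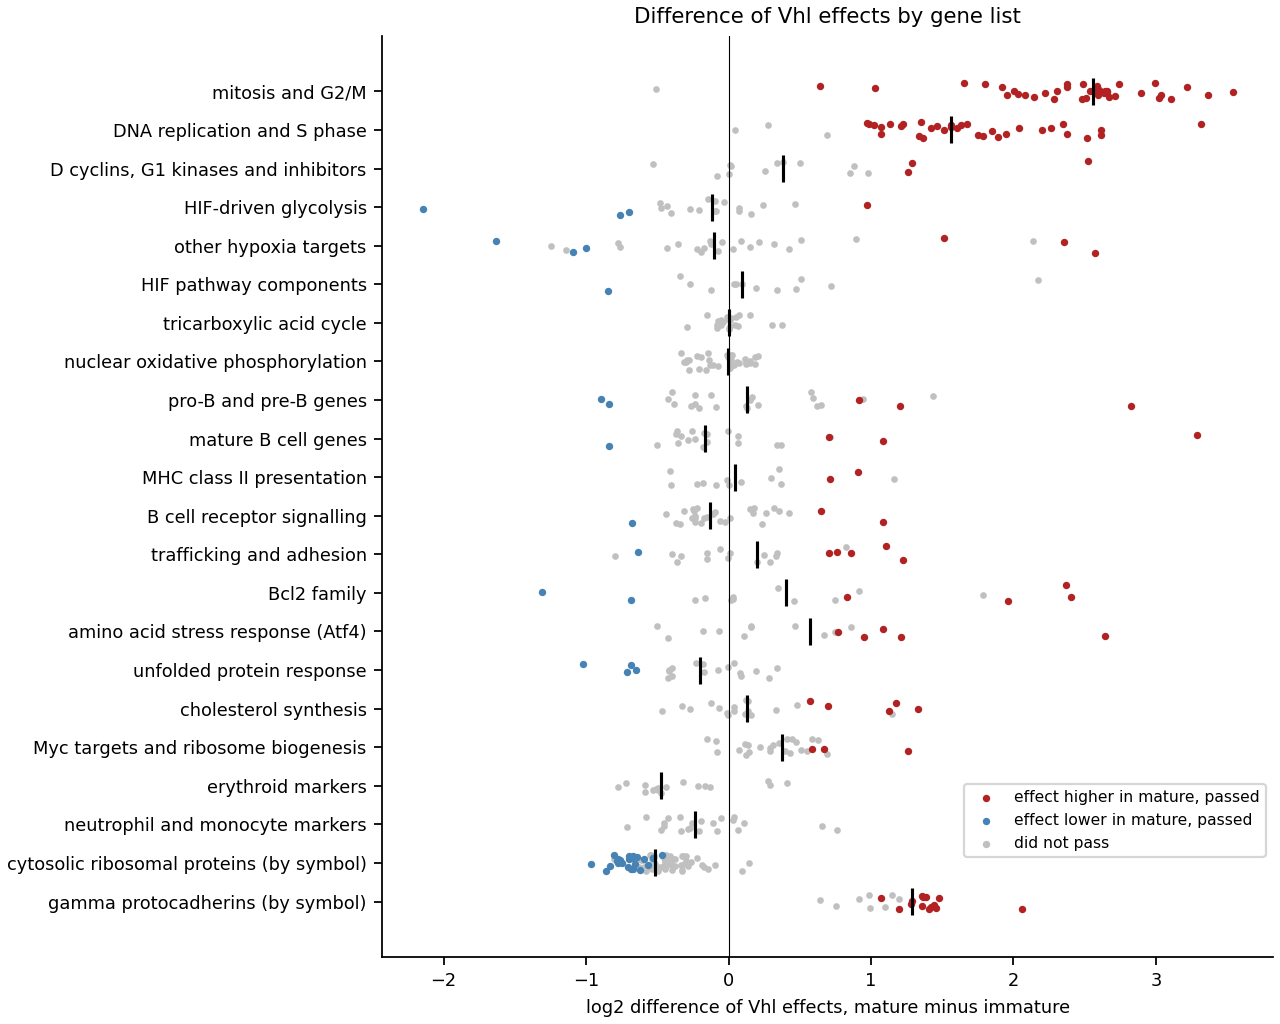
Log2 difference of Vhl effects, mature minus immature, for each tested member of 22 gene lists, leaving out genes with 3 or fewer counts in a group; red and blue points passed with a higher and a lower effect in mature cells, grey points did not pass, and black bars are medians. Mitosis and S phase genes lie to the right with medians of 2.56 and 1.56, most other lists straddle 0, and ribosomal protein genes lie to the left.

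Genes of B cell maturation gave calls of both signs. Of 25 pro-B and pre-B genes 3 were higher and 2 lower, and of 22 mature B cell genes 3 were higher and 1 lower, against 5.51% and 2.23% of all genes. The 1 lower mature B cell gene became 2 without flox/WT mouse 1 or with a replicate block for the mouse. Lef1, a Wnt pathway factor of pro-B and pre-B cells, was at 69.2, 88.8, 69.0 and 65.6 CPM in mature flox/flox mice, against 14.6, 18.9, 15.3 and 17.2 CPM in mature flox/WT mice. Its level in immature cells was 27.2, 21.1, 23.1 and 27.6 CPM in flox/flox mice, against 34.2, 40.8, 37.9 and 45.3 CPM in flox/WT mice. Genotypes were apart in opposite directions, mature flox/flox libraries were the highest of the 4 groups, and the difference was 2.82 ± 0.25 (adjusted p = 6.73e-09). Along the stages Lef1 rose by 1.56 in flox/flox mice and fell by 1.26 in flox/WT mice. Myb, a factor of lymphoid progenitors, differed by 0.92 ± 0.22 (adjusted p = 0.00768), or with an adjusted p of 0.0518 without flox/flox mouse 1. Spn, which encodes CD43, differed by 1.21 ± 0.28 (adjusted p = 0.00534).

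Vpreb3, a chaperone of the pre-B and immature B cell receptor, was lower. It was at 182, 190.1, 172 and 164 CPM in mature flox/flox mice, against 126, 206, 115 and 139 CPM in mature flox/WT mice, and at 1305, 1017, 925 and 960.0 CPM in immature flox/flox mice, against 369.8, 566, 412 and 522 CPM in immature flox/WT mice. Only the immature genotypes were apart, and the difference was -0.90 ± 0.20 (adjusted p = 0.00435). Sox4 was the other lower gene, at -0.84 ± 0.25 (adjusted p = 0.0351), a call that was lost without any 1 of flox/flox mice 1 to 3 and flox/WT mice 2 to 4 (adjusted p = 0.0731 to 0.118). The early B cell marker Cd93, named after its values were seen, rose in immature cells by 1.07 and had a difference of -0.38 ± 0.33 (adjusted p = 0.575). The surrogate light chain gene Igll1, named likewise, rose by 1.79 in mature and 1.14 in immature cells with a difference of 0.65 ± 0.54 (adjusted p = 0.564).

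Of the 22 mature B cell genes 8 fell and 1 rose in immature cells (10.5% and 10.2% of all genes), and 7 fell and 0 rose in mature cells (6.62% and 9.69%). Cr2, the complement receptor CD21, was at 384, 310.5, 412 and 373 CPM in mature flox/flox mice, against 468, 381, 365 and 412 CPM in mature flox/WT mice. In immature cells it was at 45.7, 40.3, 56.6 and 37.6 CPM in flox/flox mice, against 93.2, 107, 112 and 108 CPM in flox/WT mice. The mature genotypes overlapped and the immature ones did not, and the difference was 1.08 ± 0.22 (adjusted p = 0.00146). Zbtb32, a zinc finger repressor of activated B cells, was also called higher, at 3.96, 3.87, 3.91 and 5.99 CPM in mature flox/flox mice, against 1.08, 2.39, 3.73 and 2.29 CPM in mature flox/WT mice. Immature cells held it at 2.00, 1.26, 2.86 and 1.25 CPM in flox/flox mice, against 8.21, 9.14, 15.6 and 6.02 CPM in flox/WT mice. Mature flox/flox libraries were all above mature flox/WT ones, by little, and immature flox/flox libraries all below immature flox/WT ones, and the difference was 3.29 ± 0.55 (adjusted p = 0.000114). The form of Cr2 was shared by Gpr183, the oxysterol receptor that positions B cells in lymphoid organs, and by Itgb7, the β7 integrin, with differences of 1.11 ± 0.22 (adjusted p = 0.00098) and 0.76 ± 0.18 (adjusted p = 0.00475). Cd44, a hyaluronan receptor, differed by 0.86 ± 0.19 (adjusted p = 0.00317) through a rise in mature cells. Of 21 trafficking and adhesion genes 5 were higher and 1 lower (5.51% and 2.23% of all genes). The higher ones include these 3 and Ccr6. S1pr4 was the lower gene, and it lost its call without flox/flox mouse 1 or flox/WT mouse 2 or 3.

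Of 14 genes of MHC class II presentation 2 were higher and 0 lower (5.51% and 2.23% of all genes). H2-Eb1 was at 2436, 2997, 2249 and 2639 CPM in mature flox/flox mice, against 4504, 4997, 4223 and 3956 CPM in mature flox/WT mice. Its level in immature cells was 392, 307, 281 and 293 CPM in flox/flox mice, against 1057, 918, 1108 and 1001 CPM in flox/WT mice. It fell in both populations, further in immature cells, and the difference of 0.91 ± 0.22 (adjusted p = 0.00953) became 0.84 (adjusted p = 0.0525) without flox/WT mouse 3. The other gene was H2-Aa, whose call was lost without any 1 of 6 mice, and without flox/WT mouse 3 neither was called. Tnfrsf13b, the receptor TACI for the survival factors BAFF and APRIL, went the other way. It was at 70.9, 90.7, 47.8 and 86.2 CPM in mature flox/flox mice, against 124, 122, 135 and 136 CPM in mature flox/WT mice, and at 131, 171, 145 and 154 CPM in immature flox/flox mice, against 178, 143, 133 and 134 CPM in immature flox/WT mice. Mature flox/flox libraries were the lowest group and the immature genotypes overlapped, and the difference was -0.84 ± 0.20 (adjusted p = 0.00534). Of 30 genes of B cell receptor signalling 2 were higher and 1 lower (5.51% and 2.23% of all genes). Cr2 and Nfatc1 were higher and Cd72 was lower, and 28 of the 30 intervals lay within 1 log2 unit of 0.

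The Bcl2 family sets the threshold of apoptosis, and 4 of 16 members were higher and 2 lower (5.51% and 2.23% of all genes). Bcl2, which protects cells from death, was at 165, 169, 196 and 183 CPM in mature flox/flox mice, against 84.3, 132, 121 and 122 CPM in mature flox/WT mice. In immature cells it was at 25.6, 39.1, 35.6 and 48.1 CPM in flox/flox mice, against 100.5, 80.2, 96.8 and 95.5 CPM in flox/WT mice. The genotypes were apart in both populations and in opposite directions, with a difference of 1.96 ± 0.22 (adjusted p = 2.33e-07). The BH3-only genes Bbc3 (Puma) and Pmaip1 (Noxa), whose products oppose Bcl2 proteins, moved in the same directions, with differences of 2.37 ± 0.37 (adjusted p = 4.32e-05) and 2.40 ± 0.35 (adjusted p = 1.92e-05). Bid, another BH3 member, differed by 0.83 ± 0.17 (adjusted p = 0.00115) through a fall in immature cells. The BH3-only genes Bmf and Bcl2l11 (Bim) were lower, by -1.31 and -0.69, and without flox/flox mouse 2 neither was called, and without flox/flox mouse 1 or 3 or flox/WT mouse 2 or 4 only 1 of them was. The higher members include 1 that protects from death and 3 that promote it, and the 2 lower members promote it.

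Ranked by size among called genes that averaged 2 or more on the log2 CPM scale and whose genotypes were apart in the per-mouse values, the 15 highest differences ran from 3.32 to 3.80. Cell division genes Ticrr, Stil, Cenpf, E2f7, Aspm, Mki67 and Mcm10 were among them, of which 3 belong to the lists above. Ticrr, which licenses origins to fire, differed by 3.79 ± 0.37 (adjusted p = 3.03e-08), and Aspm, a spindle pole protein, by 3.46 ± 0.36 (adjusted p = 1.92e-07). E2f7, a repressor in the E2F family, differed by 3.46 ± 0.45 (adjusted p = 3.63e-06). Hist1h2ak, a replication-dependent histone, headed the list at 3.80 ± 0.89 (adjusted p = 0.00921), but it may share reads with near-identical histone copies and lost its call without flox/flox mouse 2 (3.10, adjusted p = 0.0655) or flox/WT mouse 4 (3.52, adjusted p = 0.0508).

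Other genes at this end were not of the cell cycle. Wnt10a, a secreted Wnt ligand, was at 32.7, 35.7, 19.8 and 21.6 CPM in mature flox/flox mice, against 3.14, 1.01, 1.49 and 3.71 CPM in mature flox/WT mice. Immature cells held it at 93.7, 62.9, 71.2 and 63.7 CPM in flox/flox mice, against 103, 95.8, 53.5 and 77.5 CPM in flox/WT mice. Immature levels overlapped, and both exceeded the mature ones, of which flox/WT was the lowest, and the difference was 3.68 ± 0.39 (adjusted p = 2.33e-07). Adgrl2, the adhesion receptor latrophilin 2, was at 24.1, 17.5, 27.5 and 40.8 CPM in mature flox/flox mice, against 1.21, 1.38, 1.87 and 1.52 CPM in mature flox/WT mice. Its immature levels were 13.9, 26.8, 27.5 and 21.7 CPM in flox/flox mice, against 11.2, 18.5, 23.0 and 14.8 CPM in flox/WT mice. Mature flox/WT libraries alone were low, and the difference was 3.78 ± 0.39 (adjusted p = 9.48e-08). Nid1, the basement membrane protein nidogen, was opposite in the populations with a difference of 3.59 ± 0.38 (adjusted p = 4.06e-07). Pard3b, a cell polarity gene, passed in mature cells alone, with a difference of 3.36 ± 0.50 (adjusted p = 2.94e-05). The set was completed by Pask, Rtkn2 and Krt222.

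Wnt10b, another Wnt ligand gene, was also called opposite in the 2 populations, on few reads. It had 38 counts in mature flox/flox and 3 in mature flox/WT libraries, and 86 in immature flox/flox and 261 in immature flox/WT libraries, and no fold change is read from it.

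At the lower end the differences ran from -3.15 to -1.38. Cox6a2, a subunit of cytochrome c oxidase known from heart and muscle and a marker of plasmacytoid dendritic cells, was at 1.98, 5.60, 2.54 and 2.44 CPM in mature flox/flox mice, against 3.02, 3.27, 2.24 and 2.00 CPM in mature flox/WT mice. Its level in immature cells was 51.4, 65.3, 49.7 and 63.6 CPM in flox/flox mice, against 4.42, 7.88, 2.61 and 6.76 CPM in flox/WT mice. Among mature and immature libraries the immature flox/flox ones alone were high, and the difference was -3.15 ± 0.44 (adjusted p = 1.28e-05). The proBpreB libraries held 74.1 to 99.2 CPM of Cox6a2 in flox/flox and 47.2 to 76.8 CPM in flox/WT mice. The 14 markers of plasmacytoid dendritic cells summed to 6064 to 6752 CPM in immature flox/flox and 5190 to 6027 CPM in immature flox/WT libraries, Cox6a2 and Ly6d were the 2 called of them, both lower, and the part of such cells in the result was not tested. Ly6d lost its call without any flox/flox mouse and without flox/WT mouse 2 or 3. Sdc1, the plasma cell marker CD138, was at 5.83, 5.70, 3.28 and 7.82 CPM in mature flox/flox mice, against 24.1, 36.7, 26.6 and 38.0 CPM in mature flox/WT mice, and at 6.13, 10.9, 8.22 and 10.2 CPM in immature flox/flox mice, against 13.1, 13.5, 14.0 and 23.1 CPM in immature flox/WT mice. It fell in both populations, further in mature cells, by a difference of -1.63 ± 0.33 (adjusted p = 0.00154). The proBpreB libraries held more Sdc1, at 49.5 to 73.3 CPM in flox/flox and 86.0 to 137 CPM in flox/WT mice.

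Pxdc1, which encodes a PX domain protein, had the tightest values of that end, with 313, 334, 267 and 309.9 CPM in mature flox/flox mice, against 229, 242, 238 and 216 CPM in mature flox/WT mice. In immature cells it was at 166, 156, 141 and 123 CPM in flox/flox mice, against 53.9, 39.2, 36.1 and 34.0 CPM in flox/WT mice. Both pairs were apart and the immature gap was the wider, with a difference of -1.44 ± 0.19 (adjusted p = 5.7e-06). Nfkbiz, which encodes the nuclear NF-κB regulator IκBζ, differed by -1.38 ± 0.33 (adjusted p = 0.00687) through a rise in immature cells. Cdkl1, a kinase gene, was opposite in the populations, with a difference of -1.89 ± 0.41 (adjusted p = 0.00301). The others were Ildr1, Basp1, Hmgcll1, Cyp27a1, Arhgap6, Cnksr3, Dcaf6 and Armc3, and of these Arhgap6, Armc3, Cyp27a1, Hmgcll1 and Basp1 lost their calls under at least 2 alternatives.

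Traf1, Il9r and Gbp2 are list members whose call for the difference was kept in every alternative. Traf1, an adaptor of TNF receptors and an NF-κB target, was at 33.7, 50.8, 36.6 and 45.6 CPM in mature flox/flox mice, against 24.5, 21.9, 40.1 and 33.0 CPM in mature flox/WT mice. Immature cells held it at 3.20, 3.49, 2.74 and 3.76 CPM in flox/flox mice, against 7.45, 8.26, 10.5 and 8.24 CPM in flox/WT mice. The mature genotypes overlapped and the immature ones did not, with a difference of 1.87 ± 0.31 (adjusted p = 0.000119). Il9r, the interleukin 9 receptor, was at 58.0, 110.2, 87.0 and 104 CPM in mature flox/flox mice, against 56.9, 44.3, 89.0 and 57.5 CPM in mature flox/WT mice. Immature levels were 0.666, 1.67, 2.27 and 2.51 CPM in flox/flox mice, against 3.92, 5.97, 10.5 and 6.29 CPM in flox/WT mice. Mature levels exceeded immature ones in both genotypes, the immature genotypes were apart, and the difference was 2.45 ± 0.56 (adjusted p = 0.00633). Gbp2, an interferon-induced GTPase, was the 1 called gene of 25 in the interferon response (2 without flox/WT mouse 1 or with a replicate block for the mouse), with a difference of 1.47 ± 0.28 (adjusted p = 0.000807) and a Vhl effect of 0.29 in mature (adjusted p = 0.347) and -1.18 in immature cells.

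**Figure D5:**
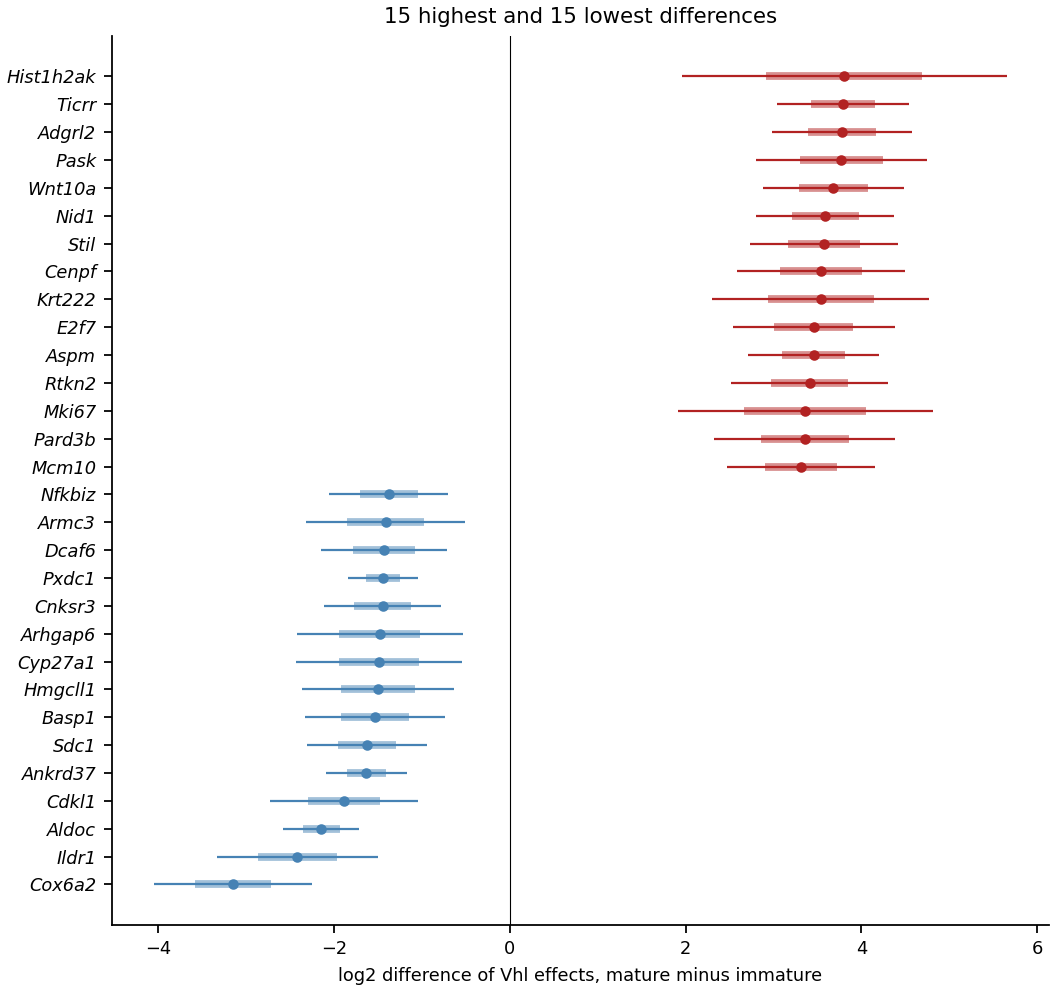
Log2 difference of Vhl effects, mature minus immature, of the 15 highest (red, 3.32 to 3.80) and 15 lowest genes (blue, -3.15 to -1.38) of those averaging 2 or more in log2 CPM; points are edgeR estimates, thick bars ± SE and thin lines 95% intervals from 18 residual degrees of freedom or more. Intervals of all 30 genes exclude 0, which is how they were chosen.

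Genes of the cytosolic ribosome were looked at after the values were seen and formed another group on the lower side. Of 84 such genes by symbol, 24 were lower and 0 higher (2.23% and 5.51% of all genes). The median difference was -0.52 over those with more than 3 counts in each group. In mature cells 56 fell and 0 rose (6.62% and 9.69% of all genes). In immature cells 1 fell and 1 rose (10.5% and 10.2%). Summed over the 84 genes, libraries held 25697, 32004, 26168 and 25273 CPM in mature flox/flox mice, against 38386, 42430, 39937 and 33572 CPM in mature flox/WT mice. Immature libraries held 25148, 29958, 23732 and 22341 CPM in flox/flox mice, against 26289, 24916, 23235 and 25145 CPM in flox/WT mice. The mature genotypes were apart, and mature flox/WT libraries alone were high. The number of genes called depended on single mice, at 8 without flox/flox mouse 1, 12 without flox/flox mouse 3, 8 without flox/WT mouse 2 and 11 without flox/WT mouse 3. These short genes have many processed pseudogenes, and the sources used here do not say how the authors counted reads that map to both.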

How the data were processed

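RNA-seq was done on sorted proBpreB, immature and mature B cells of 8 mice, 4 of each genotype. Per the labels' protocols, RNA was extracted with an RNeasy plus micro kit and libraries were made with a SMARTer Universal Low Input RNA Kit, which primes at random on small amounts of RNA. Per the submitters' processing notes the authors used the mm10 build with HISAT2, featureCounts, DESeq2, CASAVA, Trim Galore and FastQC, and neither versions nor settings are named. The values used are the deposited raw counts per gene, whole numbers made by the authors and not normalized. Whether strand was used in counting is not stated, and where genes overlap, on 1 strand or both, their reads may be mixed.

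Counts of 24 libraries were fitted in R 4.3.3 with the quasi-likelihood test of edgeR 4.0.16 (TMM scaling, filterByExpr on 6 groups, robust dispersion, 18 residual degrees of freedom). P-values were adjusted by Benjamini-Hochberg over 12850 genes with a threshold of 0.05. The difference is a contrast of the 4 mature and immature group means, its SE is the size of the estimate over the square root of F, and intervals are at 95%. Log2 CPM used a prior count of 2. The exact permutation tests were two-sided over 70 assignments. Genes were named as the 15 highest and 15 lowest differences among called genes that averaged 2 or more in log2 CPM and had genotypes apart per mouse, the 5 smallest p-values per list and 12 opposite genes, and others are marked in the text as chosen after their values were seen. The members and the gene lists were chosen with earlier results of these data known. Of the gene symbols tested, 12172 matched the RefSeq table of GRCm38.p6.

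Mature and immature libraries are paired because the labels give the same mouse for both. Their deviations from the group means correlated at 0.0277 to 0.222, over 0.1 in 3 of 8 mice. The alternatives were another scaling, other filters, 16 libraries, DESeq2 1.42.0, limma 3.58.1 voom with mice as random blocks, a mouse block in edgeR and each mouse left out, plus, added after the data were seen, both mice with Y-linked counts left out. No 2 libraries of a group agreed within sampling noise (lowest chi-square per degree of freedom 5.82). On simulated counts of 12607 genes for this contrast, 61 of 100 changes of 1 log2 unit and 98 of 100 of 2 units were recovered, with 8 false among 167 calls. The changes were placed in mature flox/flox libraries only, in genes above a minimum mean level, with equal means in all groups otherwise. Counting floors cover counting error only, whereas the intervals also include the spread between mice of a group. The authors' normalized table was not used. A few called list members are counted but not reported here.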

Additional observations from a re-analysis of the deposited data

Results flagged for a closer look

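Among the per-mouse values, the mature minus immature log2 CPM of 1 animal, 9 of 222 groups of 4 mice had a mouse that stood far from the other 3, and chance gives about 1 in 20. In flox/flox mice, mouse 3 stood apart for Bnip3l, at -0.27 against -0.445 to -0.435 in the others, and for Tnfrsf13b, at -1.60 against -0.91 to -0.84. In flox/WT mice, mouse 1 stood apart for Pxdc1 (2.08 against 2.62 to 2.71), Sox4 (-2.35 against -1.58 to -1.45), Hyou1 (1.00 against -0.46 to -0.25) and Gpr183 (2.00 against 2.54 to 2.62). In flox/WT mice, mouse 2 stood apart for H2-Aa (2.50 against 2.02 to 2.06) and Myc (-0.31 against -0.96 to -0.88), and mouse 3 for Ldha (-0.185 against -0.52 to -0.50).

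By the edgeR test of the difference itself, the Vhl effect was higher in mature than in immature cells for 708 genes and lower for 287. The following named genes passed in both populations in opposite directions, and each is given with its log2 difference of Vhl effects. Among genes of cell division these were Ticrr (3.79), Stil (3.57), Aspm (3.46), E2f7 (3.46), Mcm10 (3.32), Kif18b (3.24), Spag5 (3.23), Kif11 (3.22), Ccnb2 (2.64), Rrm2 (2.62), Pole (2.62), Nuf2 (2.61), Ccnd2 (2.53), Birc5 (2.48), Spc25 (2.37) and Tyms (2.04). Among the others these were Pask (3.77), Nid1 (3.59), Tmem98 (3.43), Rtkn2 (3.41), Lef1 (2.82), Pmaip1 (2.40), Bbc3 (2.37) and Bcl2 (1.96). Cdkl1 (-1.89) fell in mature and rose in immature cells. Wnt10b had a fitted difference of 4.73 that depends on the prior count, since mature flox/WT libraries held 3 counts, and it is not read as a fold change.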

How the results depend on the processing

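In each of 16 alternatives 0 of those of the 995 genes that it tested changed sign (908 with the filter of 10 CPM, 979 in the fit of 16 libraries and 995 in the others), and the share of calls that were higher was 66.4% to 79.2%, against 71.2%. The higher genes numbered 515 to 774 with each mouse left out, and the lower genes 146 to 355. Across the alternatives that kept all mice they numbered 587 to 840 and 208 to 368. Of the 995 calls, 945 were kept with a replicate block for the mouse (756 higher and 332 lower), 911 with limma-voom and 994 with DESeq2. The replicate block moved no count over all genes by over 1.5 times, but it moved those of the lists of mature B cell, interferon and histone genes given in the text, and cytokine and TNF family receptors had 2 lower genes with it, against 1 without. By replicate number as a block, mature cells gave 1338 rises and 963 falls and immature cells 1419 and 1431. With each mouse left out, falls in mature cells numbered 514 to 1014 (514 without flox/flox mouse 3), and the Vhl difference per mouse was 0.38 to 0.99. The cause of these shifts, other than fewer mice, was not tested. At this depth and with 4 mice per group, 61 of 100 simulated differences of 1 log2 unit were found among genes above a minimum level. Genes without a call may therefore still differ by that much unless their interval excludes it. Recovery at lower levels was not simulated.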

Other observations

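The gamma protocadherins, cell adhesion proteins made from 1 gene cluster by alternative first exons, rose with the loss of Vhl in both populations. They were chosen by symbol after their values were seen. All 22 rose in mature and 21 in immature cells (9.69% and 10.2% of all genes), with median Vhl effects of 2.17 and 0.84. In proBpreB cells 0 passed in edgeR. For the difference 14 were higher and 0 lower (5.51% and 2.23% of all genes), with a median of 1.28. Their groups overlapped per mouse in all 22, while 13.1% of all genes had no such overlap. The count of higher genes was 1 without flox/WT mouse 2 or 4 and 2 without flox/flox mouse 3 or flox/WT mouse 3. It was 5 without flox/flox mouse 1 and 21 without flox/WT mouse 1. The members share their last exons, so they are not independent, and the sources used here do not say how shared reads were assigned.

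Replication-dependent histone genes, chosen the same way, did not follow the S phase genes as a family. Of 64 tested, 4 were higher and 1 lower (5.51% and 2.23% of all genes), with a median of 0.00581. In mature cells 12 fell and 0 rose (6.62% and 9.69% of all genes). In immature cells 17 fell and 2 rose (10.5% and 10.2%). The higher count was 0 without flox/WT mouse 4, 1 without flox/flox mouse 1 and 2 without flox/flox mouse 3, flox/WT mouse 1 or flox/WT mouse 3, and the lower count was 0 without any 1 of 6 mice and 3 without flox/flox mouse 1. With a replicate block for the mouse 2 were higher and 3 lower. Near-identical copies can split their reads. Of 26 Myc targets and ribosome biogenesis genes 16 fell in immature and 2 in mature cells (10.5% and 6.62% of all genes). For the difference 3 were higher and 0 lower (5.51% and 2.23% of all genes). Without flox/flox mouse 2 or flox/WT mouse 3, 0 were called, and without flox/WT mouse 1, 5 were. Without flox/flox mouse 4 or flox/WT mouse 2 or 4, 1 was called.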
